A study of Mus musculus with 19 samples.

Results

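The comparison described here is the difference between 2 Smad4 knockout effects in the mouse vomeronasal organ (VNO). Vomeronasal sensory neurons (VSNs) of the basal layer lose Smad4 early in their maturation with AP-2εCre. With OMPCre, apical and basal VSNs lose it once mature. The difference was the log2 change of the AP-2εCre conditional knockouts (cKO) against their own controls, minus that of the OMPCre cKOs against theirs. A positive difference therefore means a higher cKO-to-control ratio in the AP-2εCre line. Of the 19 libraries of the series, the 18 with labels free of conflict were used, with 3 in each of 6 groups. One further AP-2εCre library has the title of a heterozygote and the genotype label of a cKO, and entered no comparison.

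All libraries came from whole VNOs of female mice at postnatal day 21, each labelled as a biological replicate. In the AP-2εCre line the groups were AP-2εCre+/-/Smad4flox/flox cKOs, AP-2εCre+/- heterozygous controls and Smad4flox/flox controls without Cre. The OMPCre line had OMPCre+/-/Smad4flox/flox cKOs, OMPCre+/- heterozygous controls and Smad4flox/flox controls. The sample labels call the Smad4flox/flox controls wild type, and the genotype used here is the one in the study design. Cre is placed in the Tfap2e gene or in the Omp gene itself, so cKOs and heterozygotes each carry 1 altered copy of that gene while Smad4flox/flox controls carry none. The labels name VSN types as the cell type, but RNA was taken from the whole organ, and markers of glands, cilia, blood and support cells were all measured. In such RNA, fewer cells of a type and less RNA per cell cannot be told apart, and Smad4 loss in 1 neuron type is diluted by all other cells.

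VSNs sit in 2 layers. Apical neurons use V1r receptors with the G protein Gαi2, and basal neurons use V2r receptors with Gαo and, in part, the nonclassical MHC genes of the H2-Mv group. New VSNs are produced throughout life from dividing progenitors in the VNO epithelium. Smad4 is the partner that receptor-activated SMADs of both the BMP and the TGFβ branch share when they regulate transcription.

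The estimated counts summed to 43385516 to 134042284 per library with a median of 63096715. Between 16.8% and 32.3% of a library came from its 10 most abundant genes. One OMPCre-line Smad4flox/flox library (replicate 3) stood apart in skeletal muscle genes, with a summed level of 174 CPM (counts scaled to a common library size, normalized by TMM) for the 6 muscle markers, against 2.77 to 10.02 CPM in the other 17. Smad4 itself is a weak check of the labels, since reads outside the deleted part of the gene are still counted. Smad4 had 66.1, 66.5 and 33.8 CPM in AP-2εCre cKOs against 39.6 to 81.01 (median 57.2) CPM in the 6 controls, and 61.9, 62.5 and 54.4 CPM in OMPCre cKOs against 64.8 to 83.9 (median 76.9) CPM. The groups overlapped in the AP-2εCre line and did not overlap in the OMPCre line, and the difference was 0.25 (SE 0.34, 95% interval -0.46 to 0.96). It was 0.09 with Smad4flox/flox controls alone and 0.45 with library totals, and 0.10 without AP-2εCre cKO replicate 2 and 0.51 without replicate 3.

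No gene passed the test of the difference. At a Benjamini-Hochberg adjusted p under 0.05, the quasi-likelihood test of edgeR called 0 of 19465 genes (0%), and the smallest adjusted p was 0.946. At an unadjusted p under 0.05 there were 956 genes (4.91%), 489 with a positive difference (2.51%) and 467 with a negative one (2.4%). DESeq2 on the same groups called 16 genes (0.0822%). Several of them had extreme log2 differences, from -27.3 for Gm10359 to 24.6 for Gm13414. Within the lines the edgeR fit called 10 genes in AP-2εCre cKOs (0.0514%), of which 4 rose (0.0205%) and 6 fell (0.0308%). It called 8 genes in OMPCre cKOs (0.0411%), all of which rose. The split by direction depended on the test and the controls: DESeq2 called 57 higher and 178 lower in AP-2εCre cKOs and 19 higher and 21 lower in OMPCre cKOs, and with heterozygous controls alone edgeR called 13 and 7, and 9 and 4. All 3 cKOs lay above all 6 controls for 2.18% of genes and below them for 2.76% in the AP-2εCre line, and for 1.4% and 0.935% in the OMPCre line. They did so in opposite directions in the 2 lines for 0.0154% of genes. Among the 12872 genes with a mean of at least 5 CPM, the median half-width of the 95% interval of the difference was 0.37 on the log2 scale. That interval is for a single gene, without adjustment over all genes. None of the differences below passed the adjusted test of edgeR with both kinds of control pooled and all 18 libraries in the fit.

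**Figure D1:**
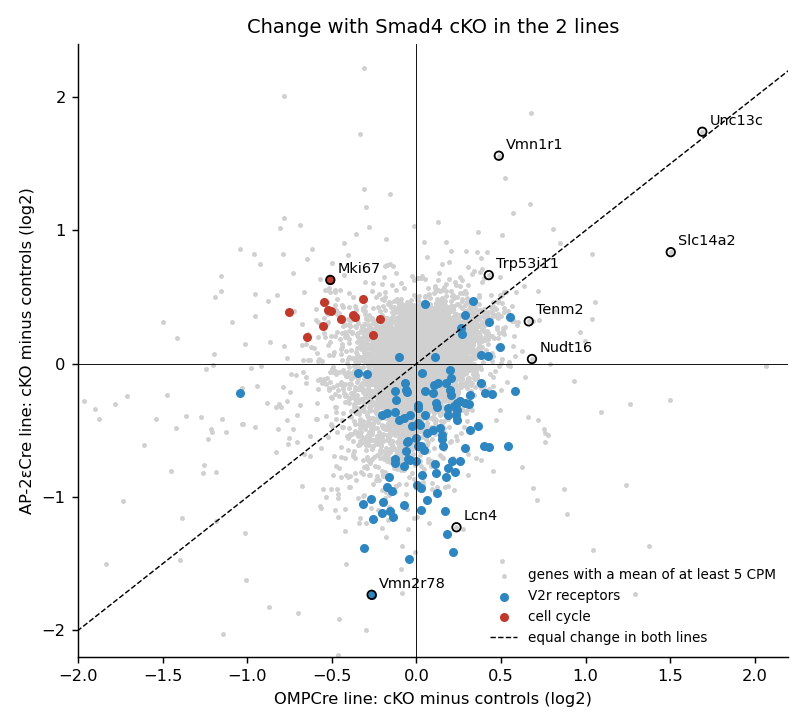
Log2 change of cKO against controls in the OMPCre line (horizontal axis) and the AP-2εCre line (vertical axis) for the 12872 genes with a mean of at least 5 CPM, of which 57 lie outside the axes. The dashed line marks an equal change in both lines. Unc13c sits close to it, at 1.69 in the OMPCre line and 1.74 in the AP-2εCre line, the V2r genes lie mostly below it and the cell cycle genes above it.

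Unc13c and Sez6l rose in both lines, the only genes called in each of them by edgeR. Unc13c encodes a Munc13 protein that primes synaptic vesicles for release. Its level was 11.5, 9.06 and 12.2 CPM in AP-2εCre cKOs and 12.6, 10.47 and 15.3 CPM in OMPCre cKOs, against 2.42 to 4.39 (median 2.88) CPM and 2.69 to 5.04 (median 4.04) CPM in the respective controls. All 3 cKO libraries lay above all 6 controls in each line. Unc13c rose by 1.74 (adjusted p = 0.00123) and 1.69 (adjusted p = 0.00294) on the log2 scale, and the difference was 0.05 (SE 0.31, 95% interval -0.59 to 0.69). Sez6l, a membrane protein of the seizure-related family, had 4.96, 4.54 and 5.72 CPM in AP-2εCre cKOs against 0.739 to 1.64 (median 1.301) CPM, and 4.48, 5.56 and 3.97 CPM in OMPCre cKOs against 0.982 to 1.89 (median 1.41) CPM. It rose by 2.004 and 1.72 (adjusted p = 0.00123 and 0.0129), with a difference of 0.29 (SE 0.36, 95% interval -0.47 to 1.04). For both genes the whole interval lay below the rise in either line.

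Syt13, a synaptotagmin, was at 1.59, 1.77 and 2.16 CPM and 1.01, 1.03 and 1.2997 CPM in the cKOs of the AP-2εCre and OMPCre lines, above all controls of its line in each case (highest control 0.847 and 0.722 CPM). At such low levels the difference was loosely bounded, at 0.68 (SE 0.67, 95% interval -0.74 to 2.098). It was 1.31 with Smad4flox/flox controls alone and 0.22 with heterozygous controls alone, and leaving out 1 library moved it between 0.42 (OMPCre-line Smad4flox/flox replicate 3) and 1.05 (AP-2εCre heterozygote replicate 3). Complete separation of cKOs above controls in both lines was seen for 33 genes (0.17%), and below controls in both for 9 (0.0462%).

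Among genes of axon sorting, no difference passed the test. The teneurin Tenm2 had 82.1, 85.5 and 112 CPM in AP-2εCre cKOs against 53.6 to 82.9 (median 78.6) CPM in controls, which overlap, and 124, 111 and 122 CPM in OMPCre cKOs against 62.9 to 91.998 (median 74.2) CPM, which do not. Its difference of -0.35 (SE 0.19, 95% interval -0.75 to 0.06) includes 0 (adjusted p = 1). The adhesion molecule Ncam1 had log2 changes of 0.34 and 0.34, and the guidance receptor Robo2 of 0.26 and 0.27. The 95% intervals of their differences were -0.48 to 0.47 and -0.44 to 0.44. The intervals of Kirrel2 (-0.98 to 0.80) and Kirrel3 (-0.58 to 0.61), which sort VSN axons into glomeruli, were wider. In the list of 26 axon sorting and guidance genes the median difference was 0.06 and 0 reached an unadjusted p under 0.05. The 22 genes of Munc13 and vesicle release had a median of 0.07, also with 0, and the 17 of synaptic adhesion and scaffolds 0.20, with 3 positive at that level (2.51% of all genes). The differences of the mean log2 CPM of the axon sorting and Munc13 lists turned with the kind of control. With Smad4flox/flox controls alone they were -0.07 and -0.01, and with heterozygous controls alone 0.17 and 0.21. The scaffold gene Dlg2 had a difference of -0.20 (SE 0.17, 95% interval -0.56 to 0.17), which was -0.0059 with library totals and -0.06 without OMPCre cKO replicate 3. The difference was 0.54 (SE 0.24, 95% interval 0.03 to 1.04) for the adenylyl cyclase Adcy3 and 0.30 (SE 0.25, 95% interval -0.23 to 0.83) for the phospholipase Plcb2. Adcy3 is also in the list of main olfactory neuron markers, given below with its unlike OMPCre-line controls.

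**Figure D2:**
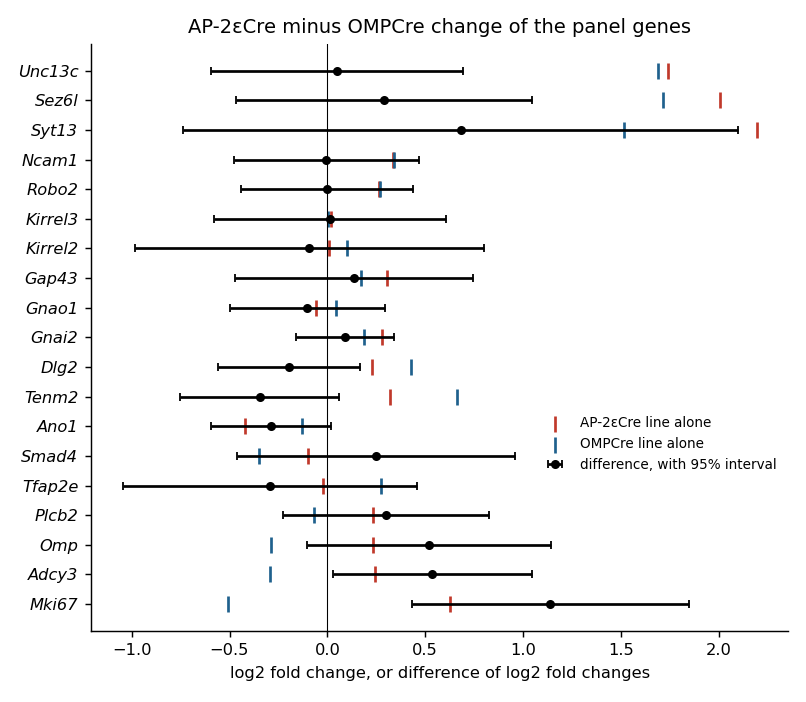
Difference between the lines for 19 of the 20 panel genes, Itln1 being outside the axis (black points, with 95% intervals) beside the log2 change in the AP-2εCre line (red ticks) and the OMPCre line (blue ticks). The intervals of Adcy3 and Mki67 leave out 0 before adjustment over all genes, and those of the other 17 include it.

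Of the genes called in the OMPCre line, some showed a smaller change in the AP-2εCre line. They are named after their values were seen. Slc14a2, a urea transporter, had 31.3, 33.9 and 37.4 CPM in OMPCre cKOs and 16.6, 23.1 and 29.7 CPM in AP-2εCre cKOs, with controls at 8.599 to 14.8 (median 12.3) and 9.28 to 15.4 (median 12.8) CPM. It lay above all controls in both lines, with log2 changes of 1.504 (adjusted p = 0.00294) and 0.84 (adjusted p = 0.151) and a difference of -0.67 (SE 0.27, 95% interval -1.24 to -0.09). The steroid 5α-reductase gene Srd5a1 showed a difference of -0.42 and that of the glycosyltransferase gene Gcnt2 was -0.14. Nudt16, a Nudix hydrolase gene, rose in the OMPCre line, with 17.6, 17.2 and 15.8 CPM against 8.24 to 12.05 (median 10.47) CPM (log2 change 0.68, adjusted p = 0.0425). In AP-2εCre cKOs it had 13.8, 11.5 and 12.4 CPM, overlapping with controls at 10.53 to 13.7 (median 12.8) CPM, and the difference was -0.65 (SE 0.17, 95% interval -1.001 to -0.29). The odorant receptor gene Olfr464 had 3.93, 7.46 and 8.16 CPM in OMPCre cKOs and 1.68, 3.06 and 2.61 CPM in AP-2εCre cKOs. Taken against the controls of each line, the difference was -1.95 (SE 0.65, 95% interval -3.32 to -0.58).

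Genes of the cell cycle lay on the positive side of the difference. All 16 genes of the list had a positive difference, as did 49.6% of all genes, and 14 of them reached an unadjusted p under 0.05, against 2.51% of all genes. The median difference was 0.84, beside -0.002 for all genes tested. It was made up of a median log2 change of 0.38 in the AP-2εCre line and -0.44 in the OMPCre line. None of the 16 passed the adjusted test of the difference or of either line.

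Mki67, a protein of dividing cells, had 59.6, 60.9 and 90.3 CPM in AP-2εCre-line Smad4flox/flox controls, 91.5, 107 and 47.9 CPM in heterozygotes and 125, 107 and 122 CPM in cKOs. In the OMPCre line it had 75.9, 95.9 and 102, 70.8, 62.9 and 110.1 and 63.97, 74.1 and 43.7 CPM in the same order. The AP-2εCre cKOs lay above all controls of their line, the lowest of them by less than 1 CPM, and of the OMPCre cKOs 1 lay below all controls of its line and 2 within their range. The difference was 1.14 (SE 0.34, 95% interval 0.43 to 1.85), with an unadjusted p of 0.00347 and an adjusted p of 0.982. Bub1b, a kinase of the spindle checkpoint, had 10.28, 10.36 and 13.4 CPM in AP-2εCre cKOs against 5.16 to 12.2 (median 8.58) CPM, and 6.002, 4.49 and 4.56 CPM in OMPCre cKOs against 6.82 to 10.8 (median 8.05) CPM. It overlapped with controls in the AP-2εCre line and lay below all of them in the OMPCre line, with a difference of 1.14 (SE 0.30, 95% interval 0.50 to 1.79). Top2a, the topoisomerase of dividing cells, had a difference of 0.93 (SE 0.27, 95% interval 0.35 to 1.505). The remaining 13 ranged from 0.47 for Pcna, the sliding clamp of replication, to 1.01 for Ccnb2, a mitotic cyclin.

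As a mean log2 CPM over the 16 genes, AP-2εCre cKOs were at 4.095, 4.03 and 4.22, their heterozygotes at 4.05, 4.16 and 3.41 and their Smad4flox/flox controls at 3.09, 3.699 and 3.68. OMPCre cKOs were at 3.42, 3.43 and 2.87, heterozygotes at 3.74, 3.61 and 3.82 and Smad4flox/flox controls at 3.52, 3.76 and 3.77. The separation was complete only in the OMPCre line, and 2 AP-2εCre heterozygotes were as high as cKOs. The lowest OMPCre cKO (replicate 3) had weight: without it, 9 of 16 genes reached an unadjusted p under 0.05 and the median difference was 0.69. With heterozygous controls alone the median was 0.66, and with Smad4flox/flox controls alone 1.02, with all 16 genes positive in each and 8 and 13 of them at an unadjusted p under 0.05.

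Red blood cell genes also lay on the positive side, and their part in the cell cycle differences was not tested. All 6 of the red blood cell markers had a difference above 0 (the smallest 0.00 when rounded, for Hba-a1), with a median of 0.65 and 2 at an unadjusted p under 0.05 (2.51% of all genes). With heterozygous controls alone 5 of the 6 were positive and 0 reached that level, with a median of 0.69. Slc4a1, the anion exchanger of the red cell membrane, had 36.997, 36.5 and 48.99 CPM in AP-2εCre-line Smad4flox/flox controls, 54.4, 89.6 and 11.05 CPM in heterozygotes and 112, 73.7 and 96.3 CPM in cKOs. In the OMPCre line the corresponding levels were 81.5, 73.3 and 87.4, 74.2, 63.1 and 92.9 and 57.9, 60.1 and 16.8 CPM. Library by library the lists shared their order in part. As a mean log2 CPM over the 6 markers, OMPCre cKO replicate 3 was the lowest of its line (7.63), as it was for the cell cycle genes. In the AP-2εCre line the lowest red blood cell level was in Smad4flox/flox replicate 3 (7.12), while Smad4flox/flox replicate 1, the lowest for the cell cycle genes, was at 8.02. OMPCre heterozygote replicate 3, the highest of its line for the cell cycle genes, was at 8.02. Its summed red blood cell level was the lowest of the line, while its Slc4a1 level (92.9 CPM) was the highest, as for Mki67. Slc4a1 was lowest in AP-2εCre heterozygote replicate 3 (11.05 CPM) and OMPCre cKO replicate 3 (16.8 CPM) of the respective lines. Each of these libraries was also the lowest of its group for the cell cycle genes. Alas2, the first enzyme of heme synthesis in red cells, had a difference of 0.68 (SE 0.23, 95% interval 0.19 to 1.17). The summed level of the 6 markers was 2765 to 3898 CPM in AP-2εCre cKOs and 1581 to 3493 CPM in their controls, and 2960 to 4789 CPM and 2593 to 6883 CPM in the OMPCre line, so the groups overlapped. None of the markers was at 0 in any library.

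The neurogenic lists had medians nearer 0 than the cell cycle list. The 10 immature neuron markers were all positive (49.6% of all genes), with a median of 0.19 and 1 gene, Marcksl1, at an unadjusted p under 0.05 with a difference of 0.51. Gap43, a growth cone protein, had 42.7, 63.8 and 75.5 CPM in AP-2εCre cKOs and 71.6, 72.7 and 39.7 CPM in OMPCre cKOs, both across the range of their controls. The 8 progenitor markers had a median of 0.17, with 7 of 8 positive. At an unadjusted p under 0.05, 1 was positive and 1 negative (2.51% and 2.4% of all genes). With either kind of control alone 8 of the 10 immature neuron markers were positive, with medians of 0.20 for Smad4flox/flox and 0.30 for heterozygous controls. Without AP-2εCre cKO replicate 3 or OMPCre cKO replicate 3 the count was 7 of 10, with medians of 0.03 and 0.13. Their median was higher, at 0.31, without AP-2εCre cKO replicate 1 and at 0.36 with library totals.

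**Figure D3:**
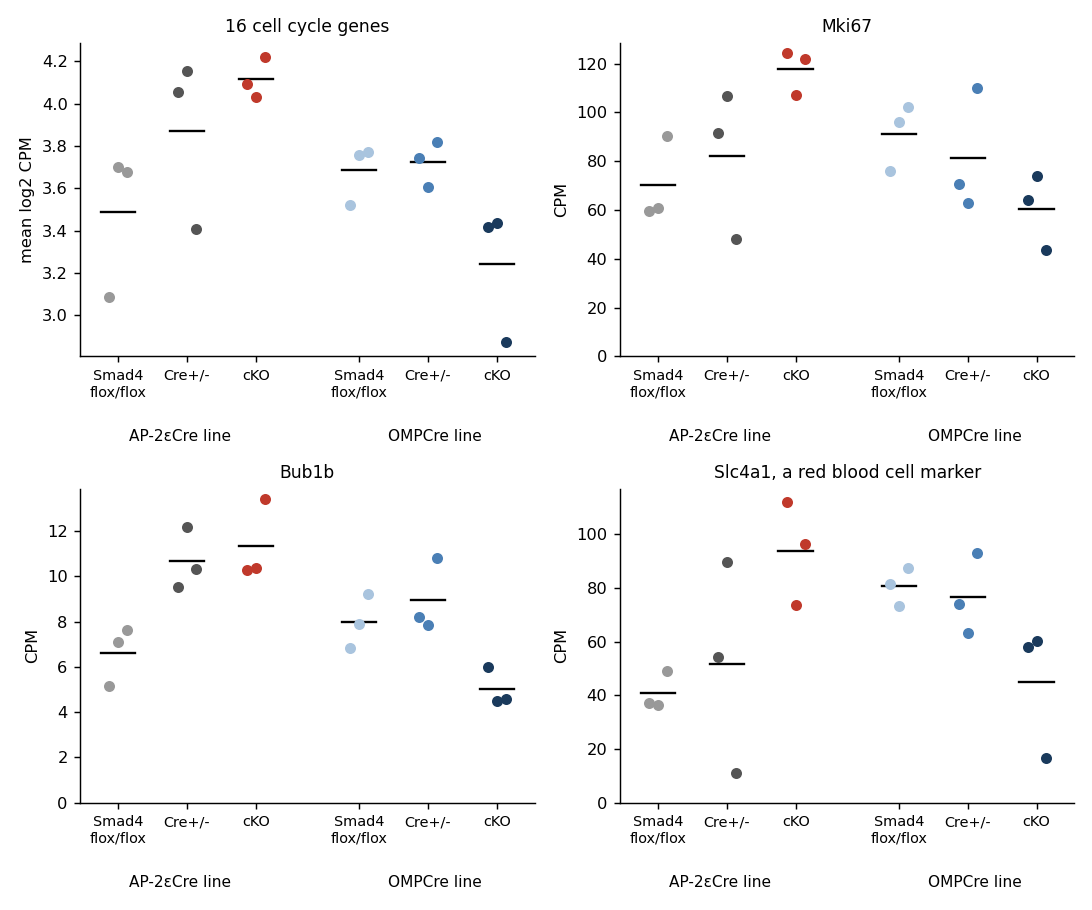
Mean log2 CPM of the 16 cell cycle genes and CPM of Mki67, Bub1b and the red blood cell marker Slc4a1 in each of the 18 libraries, with the mean of each group as a line. OMPCre cKOs have the lowest group mean of their line and AP-2εCre cKOs the highest of theirs in each panel, with single libraries overlapping with controls in most of them.

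The promoters of the 3 cell cycle genes with the smallest p, and of Sez6l as a gene that rose in both lines, are shown as the 250 bases before the RefSeq start (GRCm38.p6), so that a promoter of a gene outside the list stands beside those of the list. Capitals mark the CCAAT box (CCAAT or its reverse complement) and the cell cycle gene homology element (TTTGAA or its reverse complement), searched on both strands. The motifs can share an end base.
Bub1b (chr2:118597961-118598210, plus strand): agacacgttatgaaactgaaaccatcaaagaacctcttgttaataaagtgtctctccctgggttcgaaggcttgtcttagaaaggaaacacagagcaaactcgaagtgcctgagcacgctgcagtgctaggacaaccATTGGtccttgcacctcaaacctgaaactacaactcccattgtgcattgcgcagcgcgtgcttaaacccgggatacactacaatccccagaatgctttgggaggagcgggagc
Mki67 (chr7:135716380-135716629, minus strand): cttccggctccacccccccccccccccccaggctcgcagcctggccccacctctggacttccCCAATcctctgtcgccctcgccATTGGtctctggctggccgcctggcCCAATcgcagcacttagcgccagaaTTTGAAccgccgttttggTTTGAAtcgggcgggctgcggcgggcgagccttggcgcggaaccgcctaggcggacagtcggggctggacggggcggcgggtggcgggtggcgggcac
Top2a (chr11:99024190-99024439, minus strand): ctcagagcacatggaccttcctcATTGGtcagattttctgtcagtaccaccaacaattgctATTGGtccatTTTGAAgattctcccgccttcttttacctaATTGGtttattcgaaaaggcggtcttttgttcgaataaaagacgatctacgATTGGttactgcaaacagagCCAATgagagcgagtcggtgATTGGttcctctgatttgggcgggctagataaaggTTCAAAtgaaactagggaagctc
Sez6l (chr5:112577199-112577448, minus strand): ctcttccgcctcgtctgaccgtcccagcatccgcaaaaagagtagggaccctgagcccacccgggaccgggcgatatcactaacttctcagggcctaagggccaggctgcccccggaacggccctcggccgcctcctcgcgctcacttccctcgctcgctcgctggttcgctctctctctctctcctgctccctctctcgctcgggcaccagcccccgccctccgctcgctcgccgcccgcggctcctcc
A RefSeq promoter was matched for 13 of the 16 cell cycle genes. All 13 held CCAAT, and 6 of them (46.2%) held TTTGAA. Of 16781 promoters of the same length, one per gene, 35.9% held CCAAT and 14.5% held TTTGAA. The cell cycle gene homology element was also in 30.3% of 165 V1r and 26.1% of 115 V2r promoters, and the other motif in 55.8% and 26.1% of them. Searched on both strands as well, the AP-2 motif (GCCNNNGGC) was in 23.1% of the cell cycle promoters and 16.3% of all, and the GC-rich SMAD motif (GGCGCC) in 15.4% and 12.4%. The Sez6l window held neither of the 2 motifs marked by capitals, which says only that these letters are not in the window.

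V2r receptor genes lay on the negative side of the difference. Of 238 V2r genes and pseudogenes in the annotation, 165 passed the filter on low counts, 140 of them with a negative difference, against 50.4% of all genes. At an unadjusted p under 0.05 there were 36 negative (2.4% of all genes) and 1 positive (2.51%), and 0 passed the adjusted test. The median difference was -0.53, from a median log2 change of -0.37 in the AP-2εCre line and 0.10 in the OMPCre line. V2r genes resemble each other closely, and reads shared among them were divided by the quantification, so single members are uncertain.

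Vmn2r78 (ENSMUSG00000091962.3, GRCm38 chromosome 7, 86915094 to 86955312) was the V2r gene with the smallest p. It had 27.2, 18.1 and 20.6 CPM in AP-2εCre-line Smad4flox/flox controls, 10.7, 16.6 and 14.2 CPM in heterozygotes and 6.11, 4.205 and 5.85 CPM in cKOs, with no overlap. In the OMPCre line the levels were 20.4, 22.5 and 25.03, 21.9, 19.7 and 18.1 and 18.5, 17.8 and 16.8 CPM, with overlap. Vmn2r78 fell by 1.73 on the log2 scale in the AP-2εCre line (adjusted p = 0.00217), and its change in the OMPCre line was -0.27. The difference was -1.47 (SE 0.29, 95% interval -2.09 to -0.85), with an unadjusted p of 0.000104 and an adjusted p of 0.982 by edgeR, and an adjusted p of 0.00283 by DESeq2. Vmn2r9 had 16.5, 17.5 and 25.5 CPM in AP-2εCre cKOs against 24.5 to 49.9 (median 43.9) CPM, and 38.9, 47.3 and 58.6 CPM in OMPCre cKOs against 31.6 to 53.99 (median 48.8) CPM, with a difference of -1.09 (SE 0.31, 95% interval -1.74 to -0.44). For Vmn2r111 the difference was -1.13 (SE 0.35, 95% interval -1.87 to -0.38). Among the broadly expressed family C receptors, which basal neurons express alongside a receptor of the other families, the differences were -0.13 for Vmn2r1, -0.61 for Vmn2r2, -0.92 for Vmn2r6 and -0.59 for Vmn2r7.

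The 9 H2-Mv genes gave a median difference of -0.81, with 8 negative (50.4% of all genes) and 1 at an unadjusted p under 0.05 (2.4% of all genes). With Smad4flox/flox controls alone it was -1.06, with 9 of 9 negative and 6 at that level, and with heterozygous controls alone -0.36, with 6 and 0. The count at that level was 7 without AP-2εCre heterozygote replicate 1 and 5 without cKO replicate 3. It was 0 with library totals, and with the library series or either replicate block in the fit. The genes of the basal VSN marker list, several of which are also H2-Mv or V2r genes, gave a median of -0.66, with 11 of 11 negative (50.4% of all genes) and 1 at an unadjusted p under 0.05 (2.4% of all genes). H2-M9 had 15.5, 10.7 and 10.9 CPM in AP-2εCre-line Smad4flox/flox controls, 1.14, 3.499 and 2.58 CPM in heterozygotes and 0.943, 2.06 and 2.85 CPM in cKOs, so heterozygotes and cKOs overlapped and both lay below the Smad4flox/flox controls. The basal G protein Gnao1 had a difference of -0.10 (SE 0.19, 95% interval -0.50 to 0.29). For Tfap2e, the basal VSN factor that carries Cre, levels were 15.5, 14.01 and 16.6 CPM in AP-2εCre-line Smad4flox/flox controls, 5.44, 8.19 and 8.88 CPM in heterozygotes and 11.2, 10.02 and 12.5 CPM in cKOs.

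The size of these negative medians depended on the kind of control, and that of the basal VSN list also its side. As a mean log2 CPM, the V2r genes were at 3.21, 3.07 and 3.42 in AP-2εCre-line Smad4flox/flox controls, 1.98, 2.91 and 2.92 in heterozygotes and 2.65, 2.22 and 2.83 in cKOs, against 2.89 to 3.54 over the 9 OMPCre-line libraries. Heterozygote replicate 1 was lower than any cKO. That library also had the lowest mean log2 CPM of its line for mature VSN markers (6.03) and immature neuron markers (6.03), and the highest for sustentacular cell (7.18) and gland markers (11.98). The part of these in the V2r levels was not tested. With Smad4flox/flox controls alone the median difference was -0.80 and 74 of 161 genes were negative at an unadjusted p under 0.05, and with heterozygous controls alone it was -0.15 with 7 of 163. With library totals in place of TMM, 120 of 165 V2r genes were negative, 8 of them at an unadjusted p under 0.05, with a median of -0.34. Without heterozygote replicate 1 the count was 70 and without OMPCre cKO replicate 3 it was 13. The median of the basal VSN markers was -0.93 with Smad4flox/flox controls alone, with 6 of 11 at an unadjusted p under 0.05, and 0.01 with heterozygous controls alone, with 5 of 11 negative. The count at that level was 6 without heterozygote replicate 1, 5 without AP-2εCre cKO replicate 3 and 0 with the library series or either replicate block in the fit. With library totals 8 of 11 were negative and 0 reached that level. The loss of 1 Tfap2e copy and the presence of Cre, which heterozygotes and cKOs share, cannot be told apart here.

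**Figure D4:**
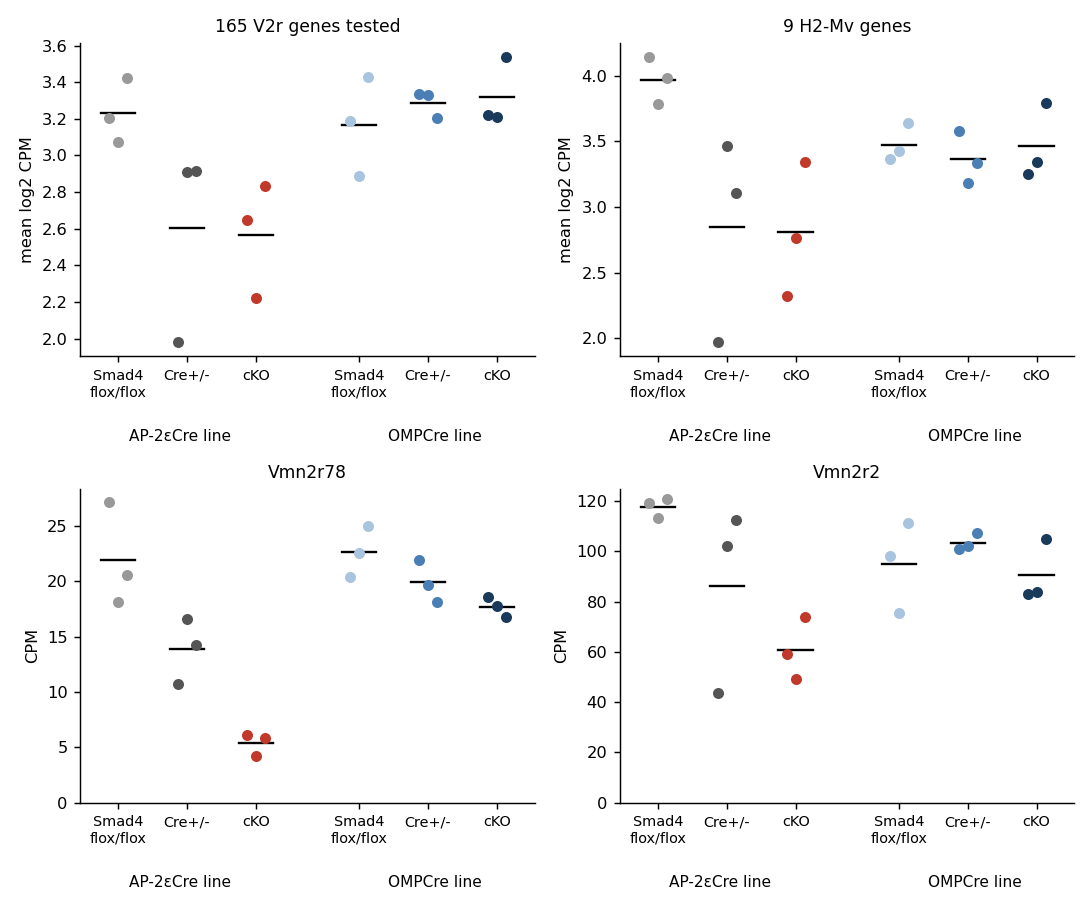
Mean log2 CPM of the 165 V2r genes tested and of the 9 H2-Mv genes, and CPM of Vmn2r78 and Vmn2r2, in each of the 18 libraries, with the mean of each group as a line. In the AP-2εCre line heterozygotes lie between Smad4flox/flox controls and cKOs or overlap with cKOs, and only Vmn2r78 separates all 3 cKOs from all 6 controls.

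The differences of apical receptor genes lay on both sides of 0. Within the lines the median log2 change of the V1r genes was positive, at 0.19 in the AP-2εCre line and 0.17 in the OMPCre line. Of 319 V1r genes and pseudogenes, 208 were tested and 111 had a positive difference, the median was 0.04, and 4 were positive and 6 negative at an unadjusted p under 0.05 (2.51% and 2.4% of all genes). With library totals in place of TMM 145 were positive and the median was 0.24, and without AP-2εCre cKO replicate 1 the values were 91 and -0.07. Vmn1r1 was the V1r gene with the smallest p. Reads can be shared with close relatives here too, so its values are uncertain. It had 9.58, 8.57 and 10.06 CPM in AP-2εCre cKOs against 2.29 to 4.04 (median 3.35) CPM, and 6.69, 6.83 and 5.31 CPM in OMPCre cKOs against 3.46 to 5.24 (median 4.53) CPM, above all controls in both lines. It rose by 1.56 in the AP-2εCre line (adjusted p = 0.00123), with a change of 0.49 in the OMPCre line (adjusted p = 1) and a difference of 1.07 (SE 0.27, 95% interval 0.51 to 1.64). The apical G protein Gnai2 had a difference of 0.09 (SE 0.12, 95% interval -0.16 to 0.34). Ano1, a chloride channel of VSN transduction, had 127, 116 and 95.1 CPM in AP-2εCre cKOs, below controls at 132 to 184 (median 147) CPM, and 129.9, 115 and 123 CPM in OMPCre cKOs, overlapping with controls at 123 to 149 (median 135) CPM, with a difference of -0.29 (SE 0.15, 95% interval -0.59 to 0.02). That difference was -0.10 with library totals and -0.18 without AP-2εCre cKO replicate 3.

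Gland and cilia genes were also on the negative side. All 9 gland genes tested had a negative difference, against 50.4% of all genes, with a median of -0.89 and 3 at an unadjusted p under 0.05 (2.4% of all genes), and all 8 ciliated cell markers, with a median of -0.42 and 0 at that level. DESeq2 and heterozygous controls alone each put 3 of the 8 ciliated cell markers at that level, and library totals gave them a median of -0.27. With Smad4flox/flox controls alone 8 of the 9 gland genes were negative and 1 was at that level. Lcn4, a lipocalin secreted into the nasal cavity, had 4187, 3730 and 5063 CPM in AP-2εCre cKOs, below all controls at 8196 to 16432 (median 8758) CPM. In OMPCre cKOs it had 9340, 9634 and 8327 CPM against 5482 to 11303 (median 7352) CPM, with overlap. The difference was -1.46 (SE 0.34, 95% interval -2.18 to -0.74), with an adjusted p of 0.982 by edgeR and 0.00832 by DESeq2. Lcn3 differed by -0.87 (SE 0.31, 95% interval -1.53 to -0.21). The OMPCre-line Smad4flox/flox library with the muscle genes had the lowest gland and cilia levels of its line, with a mean log2 CPM of 9.795 for the gland genes against 10.51 to 11.45 in the heterozygotes and cKOs. Without it the gland median was -0.79 and the cilia median -0.29. Single libraries moved these medians further: the gland median was -1.36 without OMPCre-line Smad4flox/flox replicate 1. The cilia median was -0.10 without OMPCre cKO replicate 1, -0.22 without AP-2εCre cKO replicate 1 and -0.66 without AP-2εCre cKO replicate 2. Itln1, an intelectin gene, had 45.4, 126 and 94.3 CPM in AP-2εCre-line Smad4flox/flox controls, 68.4, 39.3 and 50.01 CPM in heterozygotes and 0.618, 3.398 and 2.73 CPM in cKOs, and 0.407 to 16.9 CPM over the 9 OMPCre-line libraries, a difference of -4.24 (SE 1.28, 95% interval -6.93 to -1.55). Without OMPCre cKO replicate 1 it was -2.54.

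The markers of main olfactory neurons had 8 of 8 positive differences, with a median of 0.39 and 1 at an unadjusted p under 0.05 (49.6% and 2.51% of all genes). In the OMPCre line the controls were not alike, with a mean log2 CPM of 5.59, 5.37 and 5.25 in Smad4flox/flox controls, 6.06, 6.08 and 6.17 in heterozygotes and 5.45, 5.44 and 5.68 in cKOs. The median difference was 0.23 with Smad4flox/flox controls alone, with 6 of 8 positive and 0 at that level, and 0.55 with heterozygous controls alone, with 8 of 8 and 5. For Omp, levels were 411, 305 and 474 CPM in OMPCre-line Smad4flox/flox controls, 248, 237 and 225 CPM in heterozygotes and 253, 238 and 287 CPM in cKOs; all heterozygotes and cKOs lay below all Smad4flox/flox controls.

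**Figure D5:**
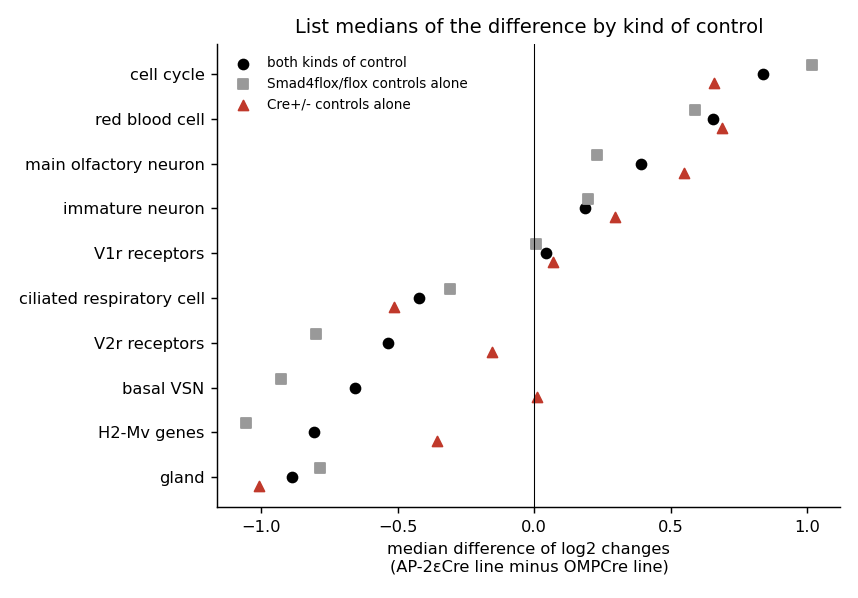
Median difference of 10 gene lists with both kinds of control (circles), Smad4flox/flox controls alone (squares) and heterozygous controls alone (triangles). Cell cycle and gland medians keep their side with each kind of control, while the V2r, H2-Mv and basal VSN medians move towards 0 with heterozygous controls and the basal VSN median reaches 0.01.

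No difference of the BMP and TGFβ pathway itself was detectable with these libraries. The median difference was 0.06 for 8 SMAD genes, 0.14 for 14 ligands, 0.04 for 12 receptors and 0.05 for 15 canonical SMAD targets, and 0 of these genes reached an unadjusted p under 0.05 by edgeR. The 6 collagen IV genes had a median of 0.03 and the 14 cell death genes of 0.01, again with 0. Among the remaining cell type lists, the median was 0.07 for apical VSNs, 0.19 for mature VSNs, -0.26 for sustentacular cells, 0.05 for immune cells, 0.01 for endothelial cells, 0.31 for horizontal basal cells, 0.35 for cartilage and bone, 0.18 for fibroblasts, 0.02 for smooth muscle and -0.18 for ensheathing and Schwann glia. For horizontal basal cells the direction turned with the kind of control, the difference of their mean log2 CPM being 0.81 with Smad4flox/flox controls and -0.65 with heterozygous controls. It also turned for endothelial cells (0.10 and -0.0046) and for ensheathing and Schwann glia (0.03 and -0.04). Each of these 10 cell type lists had at most 1 gene at an unadjusted p under 0.05. The 10 immediate early genes, which neurons induce on activity, had a median of 0.55, with 8 positive (49.6% of all genes) and 0 at that level, and medians of 0.20 in the AP-2εCre line and -0.36 in the OMPCre line. The difference of their mean log2 CPM was 0.70 with Smad4flox/flox controls and 0.36 with heterozygous controls. The median was 0.14 for 12 vomeronasal transduction genes, 0.04 for 16 synaptotagmins, -0.11 for 9 microvillus genes, -0.13 for 15 genes of the unfolded protein response and 0.42 for 5 formyl peptide receptors. For formyl peptide receptors the difference of the mean log2 CPM was 0.007 with Smad4flox/flox controls and 0.29 with heterozygous controls. Between the same controls it turned for synaptotagmins (-0.04 and 0.17) and the unfolded protein response (-0.05 and 0.03). It also turned for BMP and TGFβ receptors (-0.02 and 0.04) and odorant receptors (-0.04 and 0.23). Canonical SMAD targets (0.18 and -0.01) and cell death genes (0.08 and -0.01) turned the other way. The 6 skeletal muscle markers had a median of 4.32, which was 1.22 without the OMPCre-line library that stood apart. The 550 odorant receptor genes tested had a median of 0.04, with 16 positive and 7 negative at an unadjusted p under 0.05, shares near or under the 2.51% and 2.4% of all genes.

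Among protein-coding genes with a mean of at least 5 CPM, the 10 with the smallest p on the positive side were Incenp, Vmn1r1, Ank1, Trim10, Timeless, Dio2, Anln, Bub1b, Fhl3 and Knl1. Incenp, Anln, Bub1b and Knl1 act in chromosome segregation or cytokinesis, and Timeless at replication forks. Ank1, the ankyrin of the red cell membrane, had the largest difference of them, 1.73 (SE 0.43, 95% interval 0.82 to 2.64), and Trim10, which is known from red cell maturation, 1.68 (SE 0.43, 95% interval 0.76 to 2.59). Dio2, the deiodinase that activates thyroid hormone, had 129, 105 and 105 CPM in AP-2εCre cKOs, above all controls at 66.4 to 95.1 (median 69.3) CPM, and 63.04, 81.9 and 70.3 CPM in OMPCre cKOs against 58.1 to 98.4 (median 87.1) CPM, a difference of 0.80 (SE 0.21, 95% interval 0.35 to 1.25). With heterozygous controls alone Dio2 was called (adjusted p = 0.0444 by edgeR), with a difference of 1.097, and with Smad4flox/flox controls alone the difference was 0.50 and was not called. The 10 on the negative side were Vmn2r78, Tmem30b, Lcn4, Tc2n, Olfr648, Nudt16, Degs1, Ces1e, Ccdc148 and Aldh6a1. Their differences ran from -0.32 for Degs1, a sphingolipid desaturase, to -1.47 for Vmn2r78. With library totals the difference was -0.13 for Degs1, -0.29 for Tmem30b and -0.27 for Aldh6a1. In 8 of the 10, all but Nudt16 and Ccdc148, the OMPCre cKOs overlapped with their controls and the AP-2εCre cKOs lay below all of theirs. Tmem30b, a subunit of lipid flippases, had 53.2, 54.6 and 51.9 CPM in AP-2εCre cKOs against 60.8 to 72.8 (median 68.8) CPM, and 63.6, 57.3 and 61.6 CPM in OMPCre cKOs against 51.2 to 63.2 (median 55.9) CPM. Its difference was -0.47 (SE 0.10, 95% interval -0.69 to -0.26), with an adjusted p of 0.982 by edgeR and 0.0188 by DESeq2.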

How the data were processed

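PolyA+ RNA from whole VNOs was sequenced in stranded, single-read libraries. With Salmon 0.14.0 and mouse transcripts (mm10, GRCm38), the authors made and deposited an estimated count per transcript, which need not be whole and is not normalized. The methods name a coding-sequence assembly, but only 35.5% of the deposited transcript lengths are multiples of 3, so whether the counts cover coding sequence alone is uncertain. The authors' own comparisons were made with DESeq2 1.22.2. Estimated counts were summed over the transcripts of each GENCODE vM21 gene and rounded. Of 116248 transcripts, 176 had no gene and were left out (at most 0.0324% of a library). The 18 libraries were fitted together in edgeR 4.0.16 (R 4.3.3) as 4 groups, cKO and pooled controls of each line, with TMM normalization, filterByExpr and the quasi-likelihood test. P-values are two-sided and adjusted by Benjamini-Hochberg over 19465 genes. Intervals of differences are 95% intervals from that fit. Levels are CPM after TMM, and mean log2 CPM uses a prior count of 2. On simulated data, with 200 genes changed by a log2 difference of 1, the test of the difference recovered 37% of them, and 3.9% of its 77 calls were false. With a log2 difference of 2 it recovered 67.5%, and 5.6% of its 143 calls were false. Only AP-2εCre cKOs were changed, and both kinds of control were drawn from the same mean of a gene. In the real libraries the kinds of control differed for some lists, which the simulation does not cover.

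Named genes were a panel of 20, every gene called for the difference (0), the 10 genes of each sign with the smallest p among protein-coding genes of at least 5 CPM, and up to 3 genes of each list with the smallest p. The gene lists and the comparison were chosen with earlier results of these data known, so none of them is independent support. Lists are described by counts and medians, with no test of a list. Alternatives were DESeq2 1.42.0, its size factors in edgeR, library totals alone, 2 other filters, either kind of control alone, 6 group means, a replicate block within or over lines, a term for the naming series of the animals, a robust prior, a threshold of 0.1 on the adjusted p, and leaving out libraries singly. Some genes are not reported here.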

Additional observations from a re-analysis of the deposited data

Results flagged for a closer look

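In 3 of 19465 genes (0.0154%) all 3 cKO libraries lay on one side of all 6 controls in one line and on the opposite side in the other. Ccdc148, a coiled-coil protein gene, had 6.63, 5.81 and 6.31 CPM in AP-2εCre cKOs against 7.196 to 9.76 (median 7.83) CPM in controls, and 8.57, 8.25 and 7.63 CPM in OMPCre cKOs against 5.85 to 7.32 (median 7.097) CPM, a difference of -0.61 (SE 0.16, 95% interval -0.96 to -0.27) (adjusted p = 0.982 by edgeR). Ccnd3, a D-type cyclin gene, had 59.2, 56.9 and 60.7 CPM in AP-2εCre cKOs against 50.3 to 56.03 (median 53.8) CPM, and 52.3, 51.2 and 48.2 CPM in OMPCre cKOs against 52.9 to 60.5 (median 55.4) CPM, a difference of 0.29 (SE 0.08, 95% interval 0.12 to 0.47) (adjusted p = 0.982 by edgeR). Cldn13, a claudin gene, had 2.69, 2.998 and 3.13 CPM in AP-2εCre cKOs against 0.106 to 2.27 (median 1.01) CPM, and 1.62, 1.85 and 0.3295 CPM in OMPCre cKOs against 1.91 to 2.81 (median 2.42) CPM, a difference of 2.39 (SE 0.84, 95% interval 0.61 to 4.17) (adjusted p = 1 by edgeR). None of the 3 passed the adjusted test of the difference.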

How the results depend on the processing

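For the difference, 0 genes were called by edgeR and also with DESeq2 size factors, library totals, both other filters, the library series as a covariate, a robust prior and an adjusted p under 0.1. DESeq2 called 16, heterozygous controls alone 8, Smad4flox/flox controls alone 1 and 6 group means 1, and leaving out 1 library gave 0 to 1 (Pisd-ps2 without OMPCre-line Smad4flox/flox replicate 1, adjusted p = 0.00923, and Etv3l without OMPCre cKO replicate 1, adjusted p = 0.0195). In the AP-2εCre line the 10 calls became 235 with DESeq2, 32 with Smad4flox/flox controls alone, 20 with heterozygous controls alone, 16 with 6 group means, 17 with the library series and 18 at an adjusted p under 0.1 (library totals gave 8 higher and 4 lower, Smad4flox/flox controls alone 5 and 27), and 6 to 23 with 1 library left out (6 without Smad4flox/flox replicate 1 or cKO replicate 2, 23 without heterozygote replicate 1). In the OMPCre line the 8 calls became 40, 0, 13 and 15 with the first 4 of these, 4 with library totals, and 2 to 10 with 1 library left out (2 without cKO replicate 2). With a replicate block within each line there were 0 calls for the difference, 18 in the AP-2εCre line and 2 in the OMPCre line, and with the block over both lines 0, 14 and 6. Deviations of same-numbered libraries of a line correlated at -0.18 to 0.29 (mean 0.03), so the numbers were not taken as pairs. The library series is the naming of the animals in 2 styles, 12 libraries in one and 6 in the other, spread over the groups as 2 and 1. What the naming stands for is not given in the sources used here. Deviations were positively correlated in 60 of 75 pairs of libraries of 1 series (mean 0.07) and in 11 of 60 pairs across series (mean -0.08). With the series in the fit the cell cycle median was 0.87 and the V2r median -0.54. Library totals moved the median difference of all genes to 0.19, with 14956 of 19465 genes positive.

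Differences near 0 changed sign. With heterozygous controls alone they were 0.21 for Tfap2e, -0.10 for Unc13c, 0.29 for Robo2, -0.0164 for Gap43, 0.29 for Kirrel2, 0.0432 for Ncam1 and 0.12 for Gnao1, and with Smad4flox/flox controls alone -0.20 for Kirrel3. With library totals they were 0.20 for Robo2, 0.0910 for Kirrel2, 0.18 for Ncam1 and 0.0806 for Gnao1. Robo2 was at 0.00079 and 6.27e-05 with the other filters and 0.0179 with 6 group means, Kirrel2 at 0.0132 with the library series, and Ncam1 at 0.000639 and 0.00526 with the replicate block within and over lines. With 1 library left out the range was -0.0742 to 0.20 for Unc13c, -0.0855 to 0.0876 for Robo2, -0.10 to 0.34 for Gap43, -0.28 to 0.26 for Kirrel2, -0.15 to 0.11 for Kirrel3 and -0.16 to 0.19 for Ncam1. Other uncalled differences of the panel moved by over 1.5 times. With library totals alone, other filters, fits or controls they ranged over 0.14 to 0.50 for Plcb2, 0.06 to 0.28 for Gnai2, 0.11 to 0.49 for Sez6l, 0.19 to 0.78 for Omp, 0.30 to 0.74 for Adcy3 and -0.41 to -0.16 for Tenm2. The difference was 0.0154 for Gnai2 without OMPCre cKO replicate 3, -0.0235 for Gnao1 without AP-2εCre-line Smad4flox/flox replicate 1 and -0.16 for Tfap2e without replicate 3. The cause of these shifts was not tested.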

Other observations

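The AP-2εCre library with conflicting labels was in no comparison. Normalized with the other 18, it had 5.10 CPM of Unc13c, 0.897 CPM of Sez6l, 0.379 CPM of Syt13, 51.3 CPM of Mki67 and 87.6 CPM of Smad4. Its mean log2 CPM was 3.25 for the cell cycle genes and 2.38 for the V2r genes.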
